A study of Homo sapiens with 11 samples.

Results

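The baseline transcriptome of HCT116, a human colorectal carcinoma cell line, was described from the 3 arrays of its empty vector lines among the 11 arrays of the series. HCT116 cells had been stably transfected with the empty pIRES2-EGFP plasmid, without any insert, and kept under Geneticin selection, which gave the vector control lines V5 and V4. V5 is represented by 1 array (replicate 1) and V4 by 2 arrays (replicates 1 and 2), which the study describes as independent harvests of a line. The other 8 arrays, from lines made to overexpress gelsolin, entered only as a measure of the spread between harvests and are not compared here. Untransfected HCT116 and a further array of V5 were not analysed here. The study calls these cultures lines and in places clones, so a value of V5 or V4 belongs to that line and not to vector control cells in general. Each array carries 20596 probes on an Illumina HumanRef-8 BeadChip, and every signal below was divided by the median signal of its array, so that 1 stands for the median probe.

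A carcinoma line grown in culture keeps part of the programme of the epithelium it came from. In the colon, stem cells at the crypt base give rise to absorptive colonocytes, mucus-making goblet cells and hormone-making enteroendocrine cells, under the transcription factors CDX1 and CDX2 and with Wnt signalling highest at the crypt base. HCT116 carries activated RAS and beta-catenin signalling, lacks mismatch repair and retains a functional p53 pathway. Any dividing cell also spends much of its messenger RNA on ribosomes, translation factors, energy metabolism and the cytoskeleton.

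The 3 arrays had similar ranges, with median signals of 80.3 in V5 and 88.7 and 75.7 in V4 replicates 1 and 2. V5 and V4 replicate 2 share a beadchip, and V4 replicate 1 lies on another one. No signal was at or below 0 and no detection p accompanied the signals, so background was estimated from 485 probes of 483 genes. Their families, chiefly olfactory receptors, hair keratin-associated proteins, taste receptors and beta-defensins, were taken as silent in colon cells. The 95th percentile of these probes served as a ceiling of background, and it lay at 0.940 in V5 and at 0.932 and 0.904 in the 2 V4 arrays. Single members need not be silent, as OR51B4 gave 3.60 in V5 and 3.57 and 2.69 in V4, and a member in use raises the ceiling. A gene was called above background where its probe exceeded this ceiling on all 3 arrays, and near background where none of its probes did on any. Of 16505 named genes, 9058 (54.9%) were above background, 6451 (39.1%) were near it and 996 fell in between. Brightness depends on the probe as well as on its transcript, so ranks of genes describe the probes and are not ranks of transcript number. RPL10, a ribosomal protein gene that every cell uses, gave 0.702 in V5 and 0.647 and 0.711 in V4, near background on all 3 arrays, so a dim probe does not show that a gene was silent.

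The brightest probes belonged to genes of the translation machinery. RPS6, a protein of the small ribosomal subunit and a target of growth signalling, ranked first with 331 in V5 and 294 and 285 in V4. EEF1A1, the elongation factor that carries aminoacyl-tRNA to the ribosome, followed with 322 in V5 and 285 and 284 in V4. TPT1, which encodes the translationally controlled tumour protein, gave 264 in V5 and 292 and 270.4 in V4. V5 was the highest array for RPS6 and EEF1A1 and the lowest for TPT1, and no array gave any of the 3 genes less than 264 times its median.

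The starts of the 6 brightest genes share a sequence feature that the ranking did not use. Messenger RNAs of ribosomal proteins and elongation factors are known to begin with a terminal oligopyrimidine tract, a C followed by an unbroken run of C and T, through which their translation follows nutrient supply. Below, the 20 bases before and the first 10 bases of each transcript are given on the sense strand (RefSeq, build GRCh38.p14), with the tract in capitals. SAT1 and FTL, 2 of the 30 brightest genes from outside the translation machinery, are printed after them for contrast. They were picked because no tract was found at their start. In FTL a run of C and T ends just before the start, too far upstream to count under the rule given below.
RPS6 (chr9:19380227-19380256, minus strand): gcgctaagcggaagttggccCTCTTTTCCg
EEF1A1 (chr6:73521023-73521052, minus strand): cagtagtcgccgtgaacgttCTTTTTCgca
TPT1 (chr13:45341174-45341203, minus strand): tggggagcggctgagtcggcCTTTTCCgcc
RPS16 (chr19:39435940-39435969, minus strand): ccagggtggcccctagctttCCTTTTCCgg
RPS25 (chr11:119018334-119018363, minus strand): ccgtttctgagcagcgcttcCTTTTTgtcc
RPL38 (chr17:74203658-74203687, plus strand): ccggaaacggaagtctcgttCTTTTTCgtc
SAT1 (chrX:23783153-23783182, plus strand): agccgggccaatgttcaaatgcgcagctct
FTL (chr19:48965289-48965318, plus strand): cgccctagccacgtcccctcgcagttcggc

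In the 6 tracts the first base in capitals is the annotated first base of the transcript, where the search began. The tracts in capitals run for 6 to 9 bases. The base before each of them is also a pyrimidine, so the run of pyrimidines does not begin at the annotated start. A C followed by at least 5 further pyrimidines on the sense strand was counted where the C lay no more than 4 bases from the annotated start. RefSeq starts were found for 58 of the 69 cytosolic ribosomal protein genes with a probe, and 45 of their 70 starts (64.3%) held such a tract. The share was 26.4% (14 of 53 starts of 38 genes) for translation initiation and elongation factors and 9.96% (3498 of 35116) over all RefSeq starts. Only 65 of the 100 brightest genes had a RefSeq start, and 32 of their 82 starts (39.0%) held it. Once the ribosomal protein genes were left out, 36 genes with a start remained, and 8 of their 49 starts (16.3%) held it. The 5013 genes near background that had a start held it at 654 of 6891 starts (9.49%), close to the share over all starts. The match is a description of letters at annotated starts.

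Ribosomal proteins made up 34 of the 100 brightest genes. They are the building blocks of the cytosolic ribosome. Of the 69 members with a probe, 64 were above background (92.8%, beside 54.9% of all named genes). Their median level was 105, beside 1.19 over all named genes. The 5 members near background included RPL10 and the tissue-restricted copies RPL3L, RPL10L and RPL39L. The 72 probes of the family are 0.35% of all probes, and they carried 7.45% of the summed signal in V5 and 6.69% and 6.69% in V4. The 100 brightest probes carried 17.01% of it in V5 and 15.7% and 15.8% in V4.

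**Figure D1:**
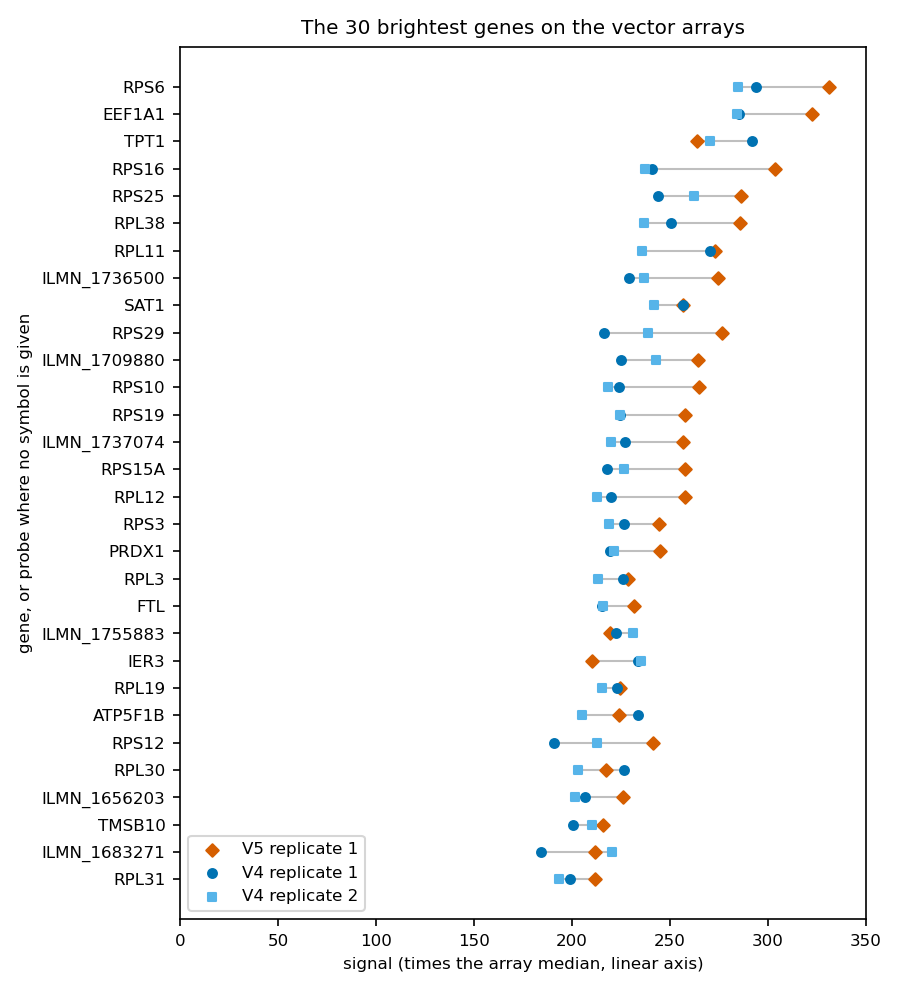
Signal of the 30 brightest genes (rows, in order of level) on the array of V5 replicate 1 and the arrays of V4 replicates 1 and 2, in multiples of the array median on a linear axis that starts at 0. Every point lies between 184 and 331 times the median, and the order starts with RPS6, EEF1A1 and TPT1.

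Other families contributed fewer of the 100 brightest genes. Translation initiation and elongation factors gave 5, among them EIF4A1, the helicase that unwinds leaders, with 160.2 in V5 and 171 and 158 in V4. Oxidative phosphorylation gave 4, led by ATP5F1B, the catalytic subunit of ATP synthase, with 224 in V5 and 234 and 205 in V4. Actin filament proteins gave 3, ferritin and thiol redox proteins 3, tubulins 2 and histones 2, and the proteasome, glycolysis, annexins, S100 proteins and integrins gave 1 each. In all, 58 of the 100 belonged to a listed family, 25 were named genes outside the families and 17 were probes without a gene symbol.

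Several of these families were bright throughout, and others held a few bright members among probes near background. Over all named genes, 54.9% were above background. All 77 mitochondrial ribosomal proteins were above background (median level 13.1), as were all 16 glycolytic enzymes (median 31.1) and 30 of 32 proteasome subunits (median 19.3). Oxidative phosphorylation subunits had 69 of 79 members above background with a median of 23.7. In contrast, only 10 of 48 keratins, 10 of 25 integrin subunits and 20 of 73 histone genes were above it, and their medians (0.729, 0.834 and 0.788) lay below the ceiling. Most replication-dependent histone genes make transcripts without a poly(A) tail, and the complementary DNA was primed with oligo(dT). The part of that in the low histone signals was not tested.

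The single brightest members stood far from the rest of their families. ITGB1, the beta subunit shared by most matrix-binding integrins, gave 116 in V5 and 123 and 119 in V4, while the next integrin, ITGA3, gave 19.2 in V5 and 21.0 and 20.2 in V4. S100A6, a calcium-binding protein of dividing cells, gave 193 in V5 and 169 and 168 in V4. ANXA1, a phospholipid-binding protein, gave 119.7 in V5 and 169 and 87.5 in V4. The 2 harvests of V4 differ by more for ANXA1 than V5 differs from either, so this level is not fixed within a line.

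Bright genes outside the structural families included regulators of polyamines, growth factor signalling and amino acid supply. SAT1, which acetylates spermidine and spermine, gave 256 in V5 and 257 and 242 in V4, and OAZ1, the antizyme that restrains ornithine decarboxylase, gave 185 in V5 and 169 and 180.4 in V4. IER3, an early response gene of the ERK pathway, gave 210.4 in V5 and 234 and 235 in V4. ERRFI1, a feedback inhibitor of the EGF receptor, gave 161 in V5 and 191 and 166 in V4. V5 lay between the V4 arrays for SAT1, was the highest array for OAZ1 and was the lowest for IER3 and ERRFI1.

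Genes that supply and charge amino acids formed the brightest of the lists that describe a cell state, with a median level of 47.8. Of 29 members, 28 were above background (96.6%, beside 54.9% of all named genes). ASNS, asparagine synthetase, gave 152 in V5 and 139 and 136 in V4. SLC7A5, the large neutral amino acid transporter, gave 132 in V5 and 145 and 131 in V4. PHGDH, the first enzyme of serine synthesis, gave 142 in V5 and 107 and 136 in V4, and AARS1, alanyl-tRNA synthetase, gave 131 in V5 and 135 and 124 in V4. ATF4, the transcription factor that switches on this programme, gave 106 in V5 and 94.1 and 105 in V4. V5 was the highest array for ASNS, PHGDH and ATF4, and it lay between the V4 arrays for SLC7A5 and AARS1.

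Of 20 measured genes of intestinal epithelial identity, 13 were above background and 6 near it, a share of 65.0% that is near the 54.9% of all named genes. With the 99th percentile of the background families as the ceiling, 10 of the 20 were above it, beside 47.1% of all named genes, so the share does not set the list apart. Its members spread widely. KRT18, KRT19 and KRT8, the keratins of simple epithelium, gave 77.2, 46.0 and 45.3 in V5. The same 3 genes gave 102, 73.2 and 74.2 in V4 replicate 1 and 97.0, 60.4 and 54.5 in V4 replicate 2. EPCAM, the epithelial cell adhesion molecule, gave 45.0 in V5 and 54.8 and 55.2 in V4, and CLDN7, a tight junction claudin, gave 40.8 in V5 and 50.8 and 46.0 in V4. For all 5 genes V5 was the lowest array and the lines did not overlap. Of the 14 members of the list tested between the lines below, V5 was below both V4 arrays for 10 and above both for 1. Over all genes tested it was below both for 42.9% and above both for 18.9%.

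The transcription factors of the list were dimmer. CDX2, which sets intestinal fate, gave 4.39 in V5 and 3.80 and 4.45 in V4, while the probe of its relative CDX1 gave 0.672 in V5 and 0.687 and 0.663 in V4, near background. ELF3 gave 6.39 in V5 and 8.18 and 5.03 in V4, KLF5 gave 3.98 in V5 and 3.17 and 3.53 in V4, and both are epithelial factors. ESRP1, an epithelial splicing regulator, gave 3.22 in V5 and 3.66 and 3.91 in V4, and GRHL2, an activator of junction genes, gave 1.13 in V5 and 1.52 and 1.32 in V4. CLDN3 gave 6.06 in V5 and 5.18 and 6.84 in V4. CLDN4 gave 1.04 in V5 and 1.25 and 1.17 in V4, and CDH1, the gene of E-cadherin, gave 0.976 in V5 and 0.999 and 1.13 in V4, so both lay only just above the ceiling. EHF was in between, with 1.83 in V4 replicate 1 only and 0.879 in V5 and 0.934 in V4 replicate 2.

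The genes of the differentiated surface were near background. CDH17, GPA33, VIL1, LGALS4 and KRT20, which mark intestinal epithelium towards the surface, together with CDX1 stayed between 0.663 and 0.833 on the 3 arrays. Of 23 genes of absorptive enterocytes and colonocytes, 20 were near background, among them FABP1, SI, APOA1 and CA1. That is 87.0%, beside 39.1% of all named genes. CA2, carbonic anhydrase 2, was the only one of the 23 above background on all 3 arrays, with 9.07 in V5 and 12.7 and 9.53 in V4. Of 10 goblet cell genes, 6 were near background, with TFF3 at 0.692 in V5 and 0.763 and 0.708 in V4. ATOH1, the factor that commits cells to the secretory lineage, gave 1.07 in V5 and 1.27 and 0.985 in V4, and REP15, a RAB15 effector, gave 1.51 in V5 and 1.28 and 1.30 in V4, both low.

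All 7 Paneth cell genes were near background, with the highest, LYZ, at 0.807 in V5 and 0.763 and 0.752 in V4. Of 13 enteroendocrine genes, 10 were near background (76.9%, beside 39.1% of all named genes), including CHGA at 0.70 in V5 and 0.568 and 0.589 in V4. SCG2, a secretory granule protein, was the exception, with 6.70 in V5 and 6.81 and 4.88 in V4. The median probe level was 0.68 for Paneth cells, 0.704 for enteroendocrine cells, 0.72 for absorptive cells and 0.824 for goblet cells, all under the ceiling. It was 2.38 for epithelial identity, a list whose 25th percentile (0.802) lay in the same range.

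Of 14 measured stem and crypt genes 8 were above background (57.1%, beside 54.9% of all named genes) and 5 near it. CD44, a hyaluronan receptor, gave 82.3 in V5 and 86.8 and 76.7 in V4. BMI1, a chromatin repressor, gave 14.8 in V5 and 19.6 and 17.3 in V4, and SOX9, a crypt transcription factor, gave 9.21 in V5 and 11.7 and 13.0 in V4. ALCAM, an adhesion molecule, gave 8.77 in V5 and 12.4 and 8.69 in V4, and PROM1, which encodes CD133, gave 6.79 in V5 and 9.32 and 7.54 in V4. The probes of LGR5, ASCL2, OLFM4, SMOC2 and EPHB3, which mark cells at the crypt base, stayed between 0.605 and 0.785.

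**Figure D2:**
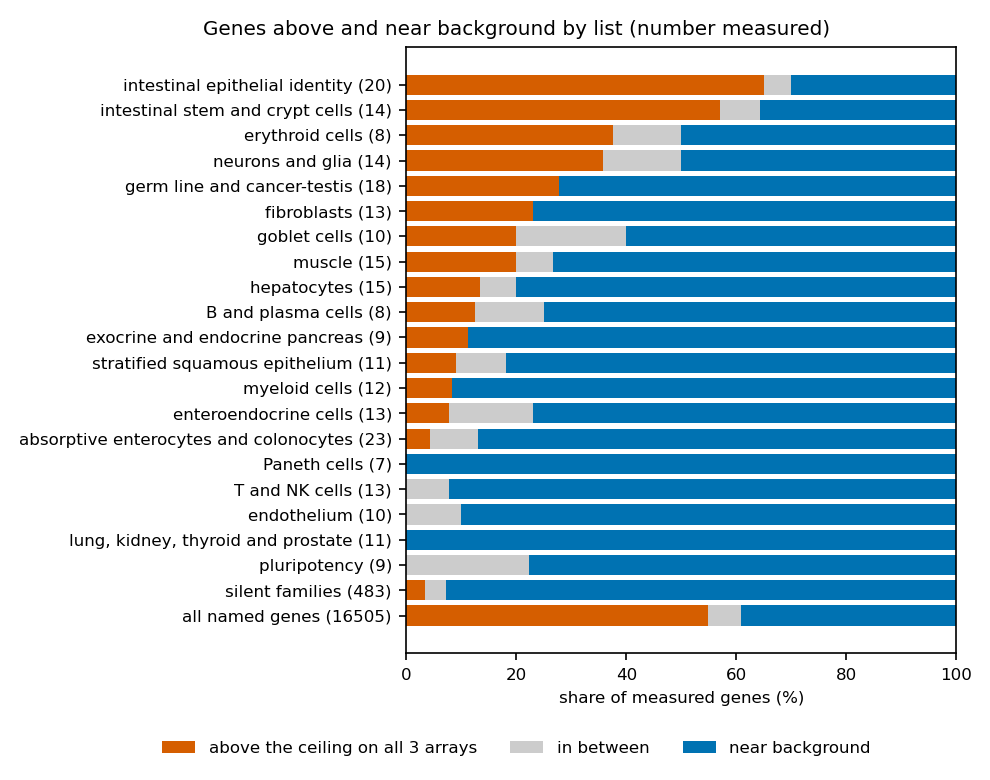
Share of the measured genes of each lineage list that were above the background ceiling on all 3 vector arrays, near background or in between, in percent, with the number of measured genes in brackets and the silent families and all named genes at the foot. Intestinal epithelial identity (65.0%) and stem and crypt genes (57.1%) lie near all named genes (54.9%), the other lists lie lower, and no gene of the Paneth, T and NK cell, endothelium, pluripotency or lung, kidney, thyroid and prostate lists was above background.

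Lineages outside the gut were mostly near background, where all named genes had 39.1% near it and 54.9% above it. No gene was above it among 13 of T and NK cells, 10 of endothelium, 9 of pluripotency and 11 of lung, kidney, thyroid and prostate. Of 12 myeloid genes 11 were near background, and the exception was CD68, a lysosomal protein that many cells make, with 2.74 in V5 and 3.03 and 3.51 in V4. Of 8 B and plasma cell genes only CD79B, with 1.06 in V5 and 1.12 and 1.20 in V4, was above it. Of 13 fibroblast genes 10 were near background, including DCN, LUM, PDGFRA and PDGFRB, and COL1A1 was the highest with 2.01 in V5 and 1.43 and 1.97 in V4, followed by COL5A1 (1.46 in V5 and 1.46 and 1.17 in V4) and COL6A3 (1.08 in V5 and 1.16 and 1.25 in V4). Of 11 genes of stratified squamous epithelium, KRT10, a keratin of suprabasal skin, was the only one above background, with 13.3 in V5 and 13.9 and 17.02 in V4. In the pancreas list only INS was above it, at 1.23 in V5 and 1.38 and 1.18 in V4, a level at the margin of background.

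A few genes of other tissues were nevertheless bright in both lines. TNNT1, the slow skeletal muscle troponin T, gave 54.8 in V5 and 44.3 and 48.7 in V4. Of the 15 muscle genes, 11 were near background (73.3%, beside 39.1% of all named genes), MYOD1, MYOG and DES among them. ACTA2, smooth muscle actin, gave 7.20 in V5 and 8.60 and 5.36 in V4, and CKM, muscle creatine kinase, was at the ceiling with 0.983 in V5 and 0.966 and 0.938 in V4. MAGEB2, a cancer-testis gene of the X chromosome, gave 25.3 in V5 and 23.9 and 27.3 in V4. V5 was the highest array for TNNT1 and CKM and lay between the V4 arrays for ACTA2 and MAGEB2.

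The cancer-testis list had 5 of 18 measured members above background (27.8%, beside 54.9% of all named genes) and 13 near it (72.2%, beside 39.1%). After MAGEB2 came MAGEA3 with 3.53 in V5 and 3.18 and 4.14 in V4, PRAME with 2.93 in V5 and 2.51 and 2.81 in V4, and MAGEA6 with 1.23 in V5 and 1.18 and 1.55 in V4. MAGEA3 and MAGEA6 are close copies, so their probes may share signal. Of 14 genes of neurons and glia 5 were above background (35.7%). They were led by MBP, whose locus also makes transcripts outside myelin, with 12.1 in V5 and 15.4 and 13.8 in V4, and by SYT1, a sensor of vesicle release, with 6.33 in V5 and 5.08 and 6.16 in V4. GRIN1 gave 2.12 in V5 and 2.76 and 2.58 in V4, and GAD1 gave 1.96 in V5 and 2.76 and 1.83 in V4, while GFAP, NEFL, SYN1 and OLIG2 were near background.

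Of 15 hepatocyte genes 12 were near background (80.0%, beside 39.1% of all named genes), ALB and APOA2 among them. CPS1, the first enzyme of the urea cycle, gave 6.01 in V5 and 8.28 and 6.66 in V4, and SERPINA1, antitrypsin, gave 1.38 in V5 and 1.65 and 1.83 in V4. In the erythroid list 3 of 8 genes were above background (37.5%, beside 54.9% of all named genes). They were KLF1 (1.02 in V5 and 1.12 and 1.02 in V4) and the fetal globin genes HBG2 (3.32 in V5 and 2.89 and 2.50 in V4) and HBG1 (2.88 in V5 and 2.94 and 2.35 in V4). HBG2 and HBG1 are near-identical copies and cannot be told apart with certainty. Red cell genes such as ALAS2, AHSP and EPB42 were near background.

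Of 12 genes of the mesenchymal state 9 were near background, including ZEB1, ZEB2, TWIST1, CDH2 and FN1. SNAI1, a repressor of E-cadherin, gave 2.00 in V5 and 2.32 and 2.02 in V4. VIM, the intermediate filament protein vimentin, is described with the differences between the lines.

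Genes altered in colorectal cancer were nearly all above background, with 8 of 9 measured members (88.9%, beside 54.9% of all named genes). MYC, the growth regulator downstream of Wnt, gave 46.4 in V5 and 52.3 and 47.5 in V4. ARID1A, a chromatin remodelling subunit, gave 21.3 in V5 and 19.3 and 20.9 in V4, and SMAD4, the common mediator of TGF-beta signalling, gave 10.1 in V5 and 11.5 and 11.7 in V4. TCF7L2, a Wnt transcription factor, gave 4.07 in V5 and 4.05 and 3.88 in V4, and CTNNB1, the gene of beta-catenin, gave 3.00 in V5 and 3.74 and 3.48 in V4. TGFBR2 gave 3.23 in V5 and 2.49 and 2.69 in V4, FBXW7 gave 2.18 in V5 and 2.84 and 2.66 in V4, and SMAD2 gave 1.17 in V5 and 1.30 and 1.18 in V4. APC was the member near background, with 0.727 in V5 and 0.802 and 0.771 in V4.

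In the mismatch repair list 6 of 7 measured genes were above background (85.7%, beside 54.9% of all named genes). PCNA, the sliding clamp, gave 18.1 in V5 and 13.1 and 14.5 in V4, and MSH6, a subunit of the mismatch sensor, gave 11.2 in V5 and 13.0 and 10.1 in V4. EXO1 gave 5.24 in V5 and 5.56 and 3.94 in V4, PMS1 gave 2.74 in V5 and 2.18 and 2.51 in V4, PMS2 gave 2.35 in V5 and 2.23 and 2.38 in V4 and MSH3 gave 1.44 in V5 and 1.51 and 1.33 in V4. MLH3 was near background with 0.722 in V5 and 0.79 and 0.764 in V4. V5 was the highest array for PCNA and PMS1 and the lowest for MLH3, and it lay between the V4 arrays for the other 4 genes.

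Targets of p53 were above background in 18 of 19 cases (94.7%, beside 54.9% of all named genes), and 13 of 19 (68.4%, beside 36.6%) exceeded 2 times the array median. GDF15, a stress cytokine, gave 90.4 in V5 and 95.8 and 108 in V4, and CDKN1A, the cell cycle inhibitor p21, gave 56.03 in V5 and 64.8 and 53.8 in V4. Of 18 Wnt target and feedback genes 10 were above background, a share of 55.6% that is close to the 54.9% of all named genes. CCND1, the gene of cyclin D1, gave 81.3 in V5 and 83.6 and 80.8 in V4. DKK1, a secreted Wnt inhibitor, gave 38.0 in V5 and 62.7 and 28.6 in V4, so its V4 harvests lay on both sides of V5. The feedback genes NKD1, LEF1 and SP5 were near background.

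Of 20 EGF receptor ligands and ERK feedback genes 16 were above background (80.0%, beside 54.9% of all named genes). Besides IER3, DUSP5, a nuclear ERK phosphatase, gave 62.7 in V5 and 84.3 and 57.1 in V4. PHLDA1 gave 58.5 in V5 and 70.9 and 66.8 in V4, and EPHA2, a receptor tyrosine kinase, gave 51.3 in V5 and 60.3 and 48.3 in V4. EGFR itself was dim, with 1.78 in V5 and 2.24 and 1.89 in V4. GSN, the gene of gelsolin that the series set out to raise, was at 1.59 in V5 and 1.60 and 1.59 in V4, above background, with a log2 difference of -0.01 between V5 and V4.

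The lines V5 and V4 were then compared by limma, with 1 coefficient per line over all 11 arrays and adjusted p-values by Benjamini-Hochberg. The single V5 array is assumed to vary as the harvests of the other lines do, and a p-value measures the difference of these 2 lines against the spread between harvests. Of 9857 genes tested, 2 (0.0203%) passed an adjusted p of 0.05, 1 higher (0.0101%) and 1 lower (0.0101%) in V5, and 168 genes had an unadjusted p under 0.05.

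GPR183, a receptor for oxysterols that guides immune cells, gave 1.43 in V5 and 0.699 and 0.729 in V4, that is, above background in V5 alone. Its level over the 2 lines was 1.009, just above the median that a tested gene had to exceed. It was therefore tested only because of its V5 signal, the array in which it is high. The difference was 1.00 on the log2 scale (standard error 0.12, limma adjusted p = 0.011). PDCD2L, a factor of small ribosomal subunit assembly, gave 7.08 in V5 and 20.3 and 18.1 in V4. The 2 V4 arrays lay close together and far above V5, a log2 difference of -1.44 (standard error 0.17, limma adjusted p = 0.011). On the beadchip that V5 shares with V4 replicate 2, the differences of these arrays were 0.97 for GPR183 and -1.35 for PDCD2L. Without V4 replicate 1 neither gene passed the limma test (adjusted p = 0.179 for both), and none passed with the authors' ratio values in place of the intensities.

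A larger set differed in size without passing the test. In all, 24 genes (0.243% of those tested) lay at least 2-fold apart with V5 outside both V4 arrays, 9 higher (0.0913%) and 15 lower (0.152%) in V5. After quantile normalization the split was 11 higher and 11 lower, and after normexp correction 10 higher and 11 lower. Between V5 and V4 replicate 2 alone, 3 of the 9 and 8 of the 15 were still 2-fold apart. The values of the 24 genes chose them, so no test is drawn from their number.

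Of the 9 higher genes, 3 (FOS, FOSB and CCN1) belong to the list of immediate early genes, which serum switches on within minutes. FOS gave 27.7 in V5 and 10.7 and 16.8 in V4, and FOSB gave 10.6 in V5 and 3.24 and 6.38 in V4, both subunits of the AP-1 transcription factor. NR4A2, an orphan nuclear receptor, gave 26.6 in V5 and 8.48 and 16.7 in V4, and its relative NR4A3 gave 2.59 in V5 and 1.16 and 1.40 in V4. CSRNP1, a nuclear protein induced by AXIN1, gave 22.8 in V5 and 7.97 and 13.3 in V4, and CCN1, a matricellular protein, gave 15.7 in V5 and 6.23 and 9.27 in V4. V5 was the highest array, V4 replicate 2 the middle one and V4 replicate 1 the lowest for all 6 genes, and none had a limma adjusted p under 1.00.

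The remaining 3 higher genes were also 2-fold apart from V4 replicate 2 alone. VIM gave 2.94 in V5 and 1.03 and 1.20 in V4, a log2 difference of 1.40 (standard error 0.57, limma adjusted p = 1.00). SAMD5 gave 8.66 in V5 and 3.48 and 4.06 in V4. TRNP1, a regulator of nuclear organisation, gave 24.97 in V5 and 13.6 and 10.1 in V4. V4 replicate 1 was the lowest array for VIM and SAMD5, as for the 6 genes before them, and V4 replicate 2 was the lowest for TRNP1.

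The lower genes with the widest gaps were LCN2, CALB2, MAL2 and PRSS8. LCN2, the iron-siderophore binding protein lipocalin, gave 3.68 in V5 and 16.2 and 15.7 in V4, the largest log2 difference of the 24 at -2.12 (standard error 1.18, limma adjusted p = 1.00). MAL2, a protein of apical transport, gave 9.94 in V5 and 37.4 and 24.7 in V4, and PRSS8, the membrane protease prostasin, gave 4.86 in V5 and 11.1 and 17.6 in V4. CALB2, the calcium-binding protein calretinin, gave 2.63 in V5 and 10.9 and 7.37 in V4. V5 was the lowest array for each of them, also next to V4 replicate 2 on its own beadchip.

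Both kallikrein proteases of the set were lower in V5. KLK7 gave 4.72 in V5 and 12.4 and 10.5 in V4, and its limma adjusted p of 0.0524 was the smallest among the genes that missed the threshold. KLK6 gave 2.81 in V5 and 8.39 and 5.34 in V4. INAVA, an adaptor of epithelial junctions, gave 1.63 in V5 and 5.70 and 3.44 in V4, and F3, tissue factor, gave 5.91 in V5 and 20.2 and 10.9 in V4. These genes kept the order V4 replicate 1, V4 replicate 2, V5 from high to low.

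For other genes of the set the 2 harvests of V4 lay far apart. ALDH1A3, a retinaldehyde dehydrogenase, gave 9.38 in V5 and 43.5 and 10.9 in V4, so V5 was close to V4 replicate 2 and only V4 replicate 1 stood apart. CEMIP, a hyaluronan-degrading protein, gave 3.53 in V5 and 11.1 and 5.00 in V4, and PROM2 gave 0.887 in V5 and 2.87 and 1.16 in V4. BCAR3, CLOCK and a probe without a symbol (ILMN_1747622) complete the 15. The differences nearest the 2-fold limit were those of NR4A3 (1.02) and ILMN_1747622 (-1.02 on the log2 scale) inside it and of GPR183 and VSNL1 just outside.

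**Figure D3:**
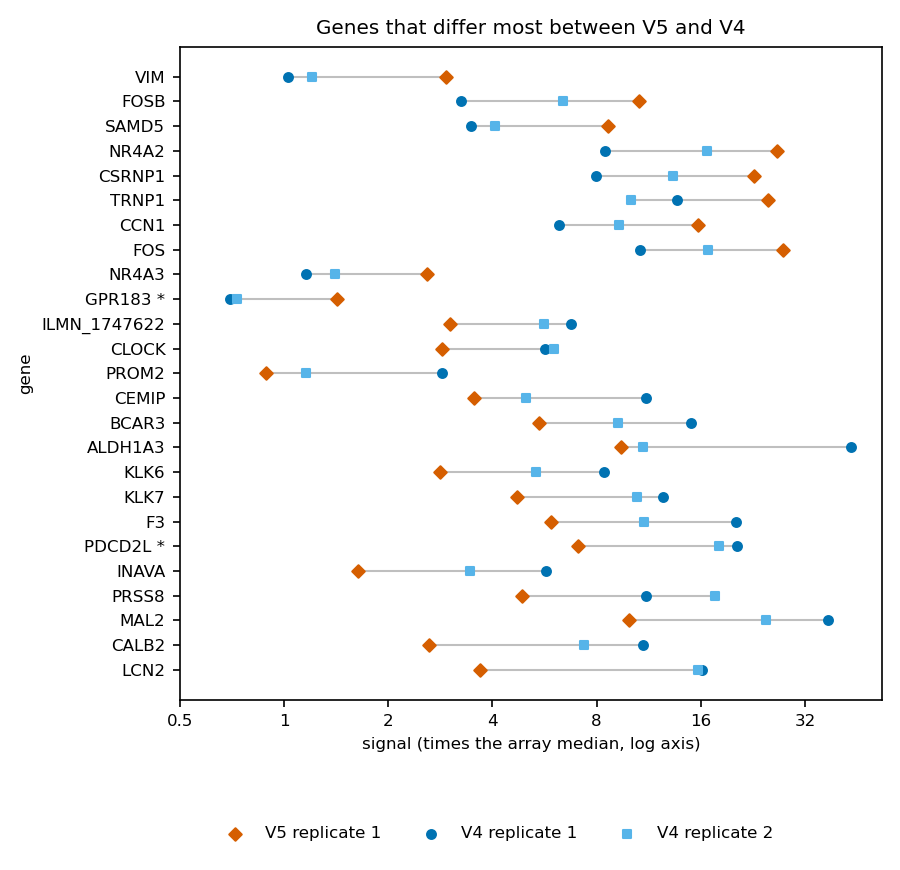
Signal on the 3 vector arrays, in multiples of the array median on a log axis, of the 24 genes at least 2-fold apart with V5 outside both V4 arrays and of GPR183, ordered by the log2 difference of V5 from V4, with a star on the 2 genes past the limma threshold. For FOS, FOSB, NR4A2 and CCN1 the array of V4 replicate 2 sits between the other arrays, and for ALDH1A3 it sits beside V5.

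Over the whole list of immediate early genes, V5 was above both V4 arrays for 10 of 15 tested genes, beside 18.9% of all genes tested, and the median log2 difference was 0.33 against -0.06 over all genes. EGR1, a zinc finger factor, gave 69.3 in V5 and 42.0 and 48.8 in V4, KLF6 gave 50.5 in V5 and 31.4 and 31.4 in V4 and ATF3 gave 27.6 in V5 and 12.8 and 17.1 in V4. FOSL1, JUN, KLF4, MCL1 and IER3 were not above both V4 arrays in V5, and IER3 was below both. No member passed the limma test, with a smallest adjusted p of 1.00, and the list median stayed above 0 under quantile normalization, normexp correction and an added offset (0.31 to 0.39).

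Keratins lay the other way. Of 11 tested keratins, V5 was below both V4 arrays for 10, beside 42.9% of all genes tested. Quantile normalization reduced the count to 8 of 11 while the share over all genes became 30.4%. The median log2 difference was -0.37 and lay between -0.37 and -0.35 under the other scalings. KRT23 gave 1.17 in V5 and 2.01 and 2.16 in V4, and KRT80 gave 2.90 in V5 and 6.82 and 3.42 in V4. The intestinal epithelial identity list, which shares KRT8, KRT18 and KRT19 with the keratins, had V5 below both V4 arrays for 10 of 14 tested genes and a median of -0.24. Claudins and junction proteins had 11 of 17 and a median of -0.21, led by JUP, plakoglobin, with 9.20 in V5 and 17.2 and 11.05 in V4. None of the members passed the limma test.

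The ribosomal protein genes lay slightly above their V4 levels in V5. V5 was above both V4 arrays for 36 of 64 tested members, beside 18.9% of all genes, and the median log2 difference was 0.07. RPS16 gave 303 in V5 and 241 and 237 in V4, one of the wider gaps. Quantile normalization reduced the count to 28 of 64 while the share over all genes became 29.0%, and the median to 0.05. None passed the limma test.

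The harvests of V4 differed from each other about as much as V5 differed from V4. Over the 9857 genes, the standard deviation of log2 differences was 0.20 between V5 and V4 replicate 2, which share a beadchip, 0.26 between V5 and V4 replicate 1, and 0.26 between V4 replicate 2 and V4 replicate 1. The numbers of genes at least 2-fold apart were 13, 48 and 29. Harvest and beadchip cannot be told apart between the V4 arrays.

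Cell cycle genes differed between the V4 harvests. All 31 measured genes of G2 and mitosis were above background, beside 54.9% of all named genes. All 31 were lower in V4 replicate 2 than in V4 replicate 1, beside 5325 of all 9857 genes tested. Their median log2 difference between these harvests was -0.71, against -0.02 over all genes. KIF20A, a mitotic kinesin, gave 5.17 in V5 and 8.72 and 3.99 in V4. CCNB1, the gene of cyclin B1, gave 6.11 in V5 and 8.99 and 4.34 in V4, and AURKA, a mitotic kinase, gave 10.9 in V5 and 16.9 and 8.56 in V4. V5 lay between the V4 harvests for nearly the whole list. It was above both for only 2 of the 31 genes (6.45%, beside 18.9% of all genes tested) and below both for 0 (beside 42.9%). The median difference of V5 from V4 was 0.02. Under quantile normalization 30 of the 31 genes were lower in V4 replicate 2, beside 4902 of all 9857 genes tested.

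Genes of S phase and DNA replication were also lower in V4 replicate 2 than in V4 replicate 1 for 25 of 29 tested genes. The count over all genes tested was 5325 of 9857. The median log2 difference of the list was -0.40. V5 was above both V4 arrays for 10 of the 29 (34.5%, beside 18.9% of all genes tested) and below both for 1 (3.45%, beside 42.9%). Under quantile normalization it was above both for 16 (55.2%, beside 29.0%). RRM1, the large subunit of ribonucleotide reductase, gave 20.8 in V5 and 32.2 and 15.4 in V4. Chaperones of the endoplasmic reticulum ran in the opposite direction. All 18 tested members were higher in V4 replicate 2 than in V4 replicate 1, with a median of 0.36. Of all 9857 genes tested, 5325 were higher in V4 replicate 1. HSPA5, the central chaperone BiP, gave 34.1 in V5 and 23.01 and 38.9 in V4.

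Single genes with a wide gap between the V4 harvests included further secreted and growth-related proteins, picked here by that gap, as a description. CPA4, a carboxypeptidase, gave 3.56 in V5 and 10.4 and 2.71 in V4, and FGFBP1, a carrier of fibroblast growth factors, gave 1.42 in V5 and 4.12 and 1.39 in V4. CXCL8, the chemokine interleukin-8, gave 10.05 in V5 and 3.56 and 8.29 in V4, and AXIN2, a Wnt feedback gene, gave 2.74 in V5 and 2.06 and 4.11 in V4. In 22 of the 29 genes at least 2-fold apart the second harvest was the lower one.

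**Figure D4:**
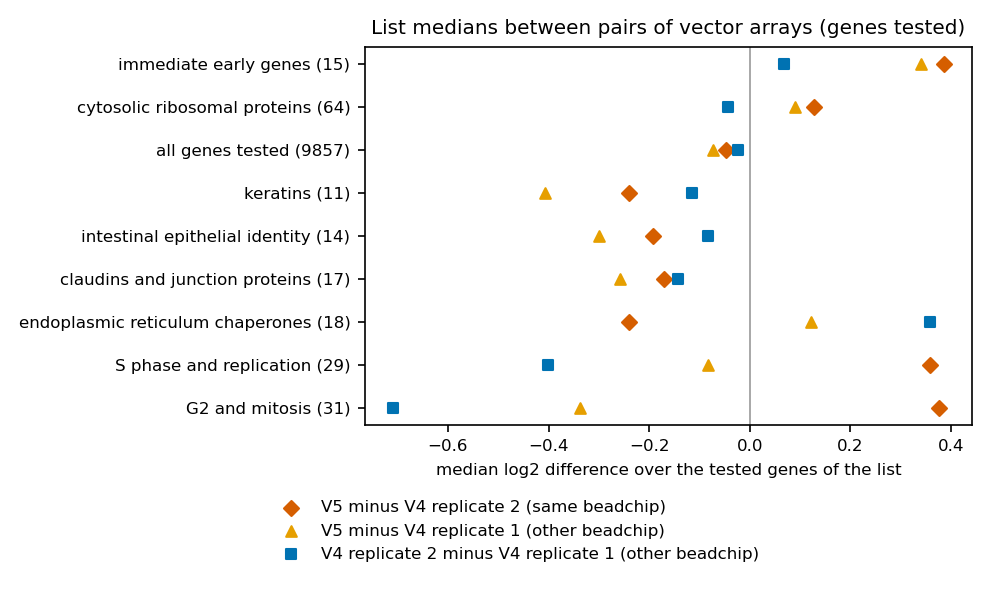
Median log2 difference of the tested genes of 8 lists, and of all genes tested, between pairs of vector arrays, with the number of genes tested in brackets. The G2 and mitosis genes lie at -0.71 between V4 replicate 2 and V4 replicate 1, whereas the immediate early genes lie at 0.39 and 0.34 in the pairs that hold V5 and at 0.07 between the V4 harvests.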

How the data were processed

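RNA of HCT116 lines was measured on Illumina HumanRef-8 BeadChips, after complementary DNA had been primed with oligo(dT). The authors summarised bead intensity in BeadStudio 3.1.3.0 and deposited linear intensity values that are not normalized between arrays. The authors also deposited a ratio table, made in GeneSpring by dividing each chip by its 50th percentile and each gene by a baseline. It equals the intensities over the array median up to 1 constant per probe, within 3.46e-07 on the log2 scale. Background remains in the signals, so differences of dim probes are understated.

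Intensities were divided by the array median. Of 20596 probes, 18389 have 1 gene symbol, 0 several and 2207 none. Symbols were updated through 18369 gene identifiers, and a gene is represented by its brightest probe. Levels rank by the mean of the V5 and V4 line means on the log2 scale. V5 was compared with V4 on log2 values with limma 3.58.1 in R 4.3.3 (lmFit with 1 coefficient per line over 11 arrays and 6 lines, eBayes with trend and robust, 2-sided), for 9857 genes whose mean of the line means exceeded the common median of 88.3. The fit was tested on simulated data. Arrays number 1 and 2 per line, which limits precision.

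The members, gene lists and rules were chosen with earlier results of these data known. Named are the 30 brightest genes, genes past the limma threshold with V5 beyond both V4 arrays, up to 4 members of each lineage list above background, all members of the intestinal epithelial identity, colorectal cancer driver and mismatch repair lists, and GSN. Other genes were chosen as examples after their values were seen. Alternatives were other normalizations, filters, ceilings, blocks and leaving out each array.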

Additional observations from a re-analysis of the deposited data

How the results depend on the processing

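The number of arrays limits every comparison between the lines. GPR183 and PDCD2L passed the limma test (2 genes) also after quantile normalization, normexp correction, an offset of 50, with all probes, and with the beadchip as a block. Without a filter 4 genes passed (KLK7 and CALB2 joined). With plain eBayes 1 passed (PDCD2L), and in a fit of the 3 vector arrays 1 (LCN2). With a stricter filter 1 passed (PDCD2L), and GPR183 was too dim to be tested there. With the authors' ratio values 0 passed. The log2 difference of each gene is the same there, as only 1 constant per probe separates ratios from intensities. The spread between harvests is the same there too. Only the mean level of a gene, which the eBayes trend uses, differs. Why the count changed under the other settings was not tested. Over the alternatives the limma adjusted p of GPR183 ran from 0.00221 to 0.311 and that of PDCD2L from 0.00555 to 0.29. Leaving out a V4 array gave 0 to 3 genes, with ALDH1A3 joining without V4 replicate 2. The genes at least 2-fold apart were 13 to 48 when V4 replicate 1 or 2 was left out, and 18 to 24 elsewhere.

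With the replicate number as a block, 2 genes passed. In the 5 lines with both harvests the replicate number goes with the beadchip. V5 replicate 1 is the only number 1 array on the beadchip of the number 2 arrays. Over 10 pairs of these lines the harvest differences correlated between -0.295 and 0.599, with a mean of 0.144. These values do not decide whether the numbers pair the arrays. V5 and V4 share only number 1.

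The 10317 probes above the background ceiling became 6678 at 2 times the array median, 8686 to 11214 at other percentiles or with olfactory receptors alone, and 10420 to 10589 without 1 array. Ribosomal proteins numbered 34 of the 100 brightest genes, 39 of the 200 brightest, 21 of the 50 brightest and 34 to 35 without 1 array. Short lineage lists depend on the ceiling: at 2 times the array median goblet cell, fibroblast, pancreas and B cell genes above it number 0, and at the 90th percentile pluripotency genes number 2 and T and NK cell genes 1. Among 1461 values of named genes under the alternatives, 4 gained and 7 lost the call.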

Other observations

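One olfactory receptor stood apart from the genes used to estimate background. OR51B4 gave 3.60 in V5 and 3.57 and 2.69 in V4, and the next of the 483 genes, OR2A1, gave 1.51 in V5 and 1.75 and 1.81 in V4. OR51B4 is neighbour to the globin genes on chromosome 11, and the measured gene next to it on that side, HBE1, which encodes embryonic epsilon globin, gave 21.3 in V5 and 25.5 and 17.2 in V4. HBG2 and HBG1, the next in order, were the brightest genes of the erythroid list. Of the 13 genes made up of OR51B4 and its 6 nearest measured neighbours on each side, these 4 adjacent ones were above background, 8 were near it, HBD and HBB among them, and OR51B6 fell in between. All 4 were dimmest in V4 replicate 2, and V5 was the highest array for HBG2 and OR51B4 and the middle one for HBE1 and HBG1. The order of the genes is that of RefSeq, the genes were chosen after their values were seen, and no test was made.

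IL18, an interleukin made by epithelium, gave 138 in V5 and 111 and 140.2 in V4. Of 24 measured NF-kB targets and chemokines, 12 were above background and 9 near it, with IL1A, IL1B and CXCL10 among the 9. The share near background, 37.5%, is close to the 39.1% of all named genes. SERPINE2, an inhibitor of serine proteases, gave 121 in V5 and 120.2 and 134 in V4, and TIMP1, an inhibitor of metalloproteinases, gave 79.9 in V5 and 74.0 and 90.6 in V4. PLAU, urokinase, gave 22.8 in V5 and 39.8 and 30.7 in V4. Of 32 metalloproteinases and TIMPs 21 were near background (65.6%, beside 39.1% of all named genes), MMP7, MMP1 and MMP2 among them. Metallothioneins were carried by MT2A, with 95.6 in V5 and 76.9 and 93.5 in V4, while 5 of 10 measured members were near background.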
